A study of Homo sapiens with 12 samples.

Results

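The cornified envelope is a protein shell that replaces the plasma membrane of squamous epithelial cells at the end of their differentiation. Described here are 10 genes of that structure: the transglutaminases TGM1, TGM3 and TGM5, the envelope components IVL, CNFN, EVPL, PPL, CRCT1 and CSTA, and TMEM79. They were chosen by symbol from the 46931 entries of the deposited gene table, among those placed on an assembled chromosome, by a rule with no threshold on a measured value. The set was proposed with earlier results of these data known, so its counts do not come from a blind choice. Each symbol matched 1 entry.

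The cells were MCF10A, an immortalized mammary epithelial line with a wild-type genotype, grown with horse serum, insulin, hydrocortisone and epidermal growth factor. The study crossed siRNA against YAP and TAZ with XMU-MP1, an inhibitor of the Hippo kinases MST1 and MST2, and measured poly(A) RNA by sequencing. YAP (gene YAP1) and TAZ (gene WWTR1) are transcriptional coactivators that bind TEAD factors, and the Hippo kinases restrain them. Control siRNA was used at 22 nM, and the 2 sets directed at YAP and TAZ at 11 nM. At 48 h the medium was changed to one with DMSO or 5 µM XMU-MP1, and cells were collected 6 h later. The 4 groups are control siRNA with DMSO (siC_DMSO), control siRNA with XMU-MP1 (siC_XMU), the YAP and TAZ siRNA with DMSO (siYT_DMSO) and the YAP and TAZ siRNA with XMU-MP1 (siYT_XMU). Each has 3 libraries, a, b and c. All cells were transfected, so there is no untransfected group, and the siRNA against YAP and TAZ were used together, so the effect of each alone was not measured. Whether the 3 libraries of a group came from separate cultures is not given, so p-values measure the spread between these libraries, which may be technical.

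During cornification, transglutaminases join glutamine and lysine side chains of neighbouring proteins into bonds that proteases do not cut. Envoplakin (EVPL), periplakin (PPL) and involucrin (IVL) form an early scaffold beneath the membrane, and loricrin and the small proline-rich proteins are added later. Normal breast epithelium does not cornify, whereas epidermis and other squamous epithelia do. IVL and CRCT1 lie in the epidermal differentiation complex, a gene cluster on chromosome 1 that holds many envelope genes.

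The table places the genes on GRCh38.p13. IVL lies at chr1:152908545-152911886 on the plus strand, CRCT1 at chr1:152514482-152516010 on the plus strand and TMEM79 at chr1:156282913-156292443 on the plus strand. TGM1 lies at chr14:24249114-24263177 on the minus strand, TGM3 at chr20:2296001-2341079 on the plus strand and TGM5 at chr15:43232590-43266928 on the minus strand. EVPL lies at chr17:76006845-76027306 and PPL at chr16:4882507-4937148, both on the minus strand. CNFN lies at chr19:42387019-42390318 on the minus strand, and CSTA at chr3:122325248-122341969 on the plus strand. PPL and TGM3 each overlap 1 noncoding entry on the opposite strand, and how the authors' counting used strand is not given in the sources used here. The entry over TGM3 had 0 counts in every library, and the one over PPL had 14 to 73.

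The RefSeq promoter table, on GRCh38.p14, held windows for 5 of the 10 genes. The 250 bases before an annotated start are shown for 4 of them. IVL, CNFN and TMEM79 rose after the knockdown in DMSO, and TGM5 did not pass the test there. The window of TGM3, which also rose, is described below without its sequence. Capitals mark matches on either strand to the letters TGANTCA (the AP-1 core), GGAATG (the TEAD core, whose reverse complement is CATTCC), AACCNGTT (Grainyhead), GGGTGTG (KLF) and TATAAA. The half-site of the p53 family was searched in the same way, as a pattern of letters on either strand.

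IVL, chr1:152908296-152908545, plus strand: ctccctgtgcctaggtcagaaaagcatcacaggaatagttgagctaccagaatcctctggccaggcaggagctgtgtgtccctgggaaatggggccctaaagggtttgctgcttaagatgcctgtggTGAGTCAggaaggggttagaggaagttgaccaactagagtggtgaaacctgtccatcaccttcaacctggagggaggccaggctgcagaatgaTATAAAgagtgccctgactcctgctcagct
CNFN, chr19:42390298-42390547, minus strand: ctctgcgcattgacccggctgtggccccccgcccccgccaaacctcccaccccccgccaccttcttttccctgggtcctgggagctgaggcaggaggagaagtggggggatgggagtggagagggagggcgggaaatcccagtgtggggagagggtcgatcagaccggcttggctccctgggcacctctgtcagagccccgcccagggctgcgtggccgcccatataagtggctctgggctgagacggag
TMEM79, chr1:156284075-156284324, plus strand: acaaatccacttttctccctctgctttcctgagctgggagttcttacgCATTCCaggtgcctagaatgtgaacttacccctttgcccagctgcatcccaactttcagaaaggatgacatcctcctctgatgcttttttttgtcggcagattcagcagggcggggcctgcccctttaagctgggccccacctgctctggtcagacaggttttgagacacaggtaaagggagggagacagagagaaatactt
TGM5, chr15:43266929-43267178, minus strand: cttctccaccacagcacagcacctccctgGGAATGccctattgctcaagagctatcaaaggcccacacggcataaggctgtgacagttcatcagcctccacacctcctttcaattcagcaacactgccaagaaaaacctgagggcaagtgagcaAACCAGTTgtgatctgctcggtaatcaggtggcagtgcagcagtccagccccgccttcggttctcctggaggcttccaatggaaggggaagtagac

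The IVL window held the AP-1 letters from -123 to -117 and TATAAA from -30 to -25, counted from the start. The CNFN window matched none of the 6 motifs. The TMEM79 window shown lies inside the gene, before a second annotated start, and matched the TEAD letters from -202 to -197. Its other annotated window, chr1:156282682-156282931, spans the first base of the gene, 156282913, is not shown and matched none. The TGM5 window matched the TEAD letters from -221 to -216 and the Grainyhead letters from -96 to -89. The TGM3 window, not shown, matched the TEAD and KLF letters and TATAAA. No member window held the p53-family half-site. Over all 35116 windows of 250 bases, 6.57% held the AP-1 letters, 11.9% the TEAD letters, 1.49% the Grainyhead letters, 6.63% the KLF letters, 10.7% TATAAA and 5.57% the p53-family half-site. Of the motif pairs searched, none overlaps another in the windows shown. These are matches of letters only, and no binding was measured.

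Libraries held 8243351 to 67953633 counts. The siRNA targets were lower in every knockdown library. YAP1 was at 201, 223 and 193 CPM (counts scaled to library size, with TMM factors) in siC_DMSO against 12.6, 9.09 and 7.84 in siYT_DMSO, and WWTR1 was at 34.6, 24.0 and 38.2 in siC_DMSO against 4.30, 4.47 and 3.66. All 8 epithelial markers reached 1 CPM in at least 1 library. EPCAM, KRT5, KRT8 and KRT18 were lower in siYT_DMSO than in siC_DMSO, and CDH1 and KRT17 higher, each without overlap. KRT5 was at 4236 to 5086 CPM in siC_DMSO against 1030 to 2297 in siYT_DMSO, and KRT17 at 550 to 760 against 3248 to 9291. Of 5 luminal mammary markers, 4 (ESR1, GATA3, FOXA1 and KRT19) reached 1 CPM, and PGR was at 0 in every library. The library siYT_XMU c stood apart, with 8243351 counts, 15135 genes with a count against 17950 to 20704 in the others, and 35% of its counts in ribosomal RNA genes against 1.02% to 8.35%. It also held LYZ at 58.6 CPM, PTPRC at 5.59 and COL1A2 at 33.4. The summed level of the leukocyte markers was 44.5 to 62.3 CPM in siC_DMSO, 20.1 to 29.9 in siC_XMU, 84.8 to 155 in siYT_DMSO and 71.0 to 206 in siYT_XMU, mostly from CD14 and CD68 outside siYT_XMU c. PTPRC was at 0 in all 6 control siRNA libraries and at most 0.0773 CPM in siYT_DMSO. The 7 fibroblast markers summed to 11.3 to 24.3 CPM in siC_DMSO, 15.9 to 27.7 in siC_XMU, 24.2 to 70.3 in siYT_DMSO and 23.5 to 137 in siYT_XMU. The part of these markers in the results was not tested. Results of the members and lists that compare siYT_XMU with another group are followed by values without siYT_XMU c. The knockdown in DMSO and XMU-MP1 in control siRNA compare groups that do not hold it, but it enters their filter and estimate of the spread. Without it, 3487 of all genes were called higher and 3612 lower in the knockdown in DMSO, against 2929 and 2897 as reported. For XMU-MP1 in control siRNA these were 1134 and 1527, against 725 and 955.

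Knockdown of YAP and TAZ in DMSO raised 9 of the 10 genes, and none fell. Called genes had a Benjamini-Hochberg adjusted p under 0.05 over 18143 genes in edgeR's quasi-likelihood test, fitted to all 12 libraries. Over all genes tested, 16.1% were called higher and 16.0% lower. No member fell at an unadjusted p under 0.05 either (0 of 10), and DESeq2 and voom also called 0 lower. Over the 18143 genes, 7591 had an unadjusted p under 0.05 in either direction, and DESeq2 called 3483 lower and voom 3793. The median log2 fold change of the 10 genes was 5.01, or 4.19 with the genes that had no control counts set at their lower bounds, beside 0.02 over all genes. The libraries of the 2 groups did not overlap for the 9 called genes. The share of all genes without overlap was not computed, so this describes the called genes and is no further support. TGM3 and CRCT1 passed the filter on low values only through knockdown libraries, so their being tested at all depended on the higher group. In bulk RNA, a change in the number of cells that express a gene and a change in RNA per cell cannot be told apart.

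**Figure D1:**
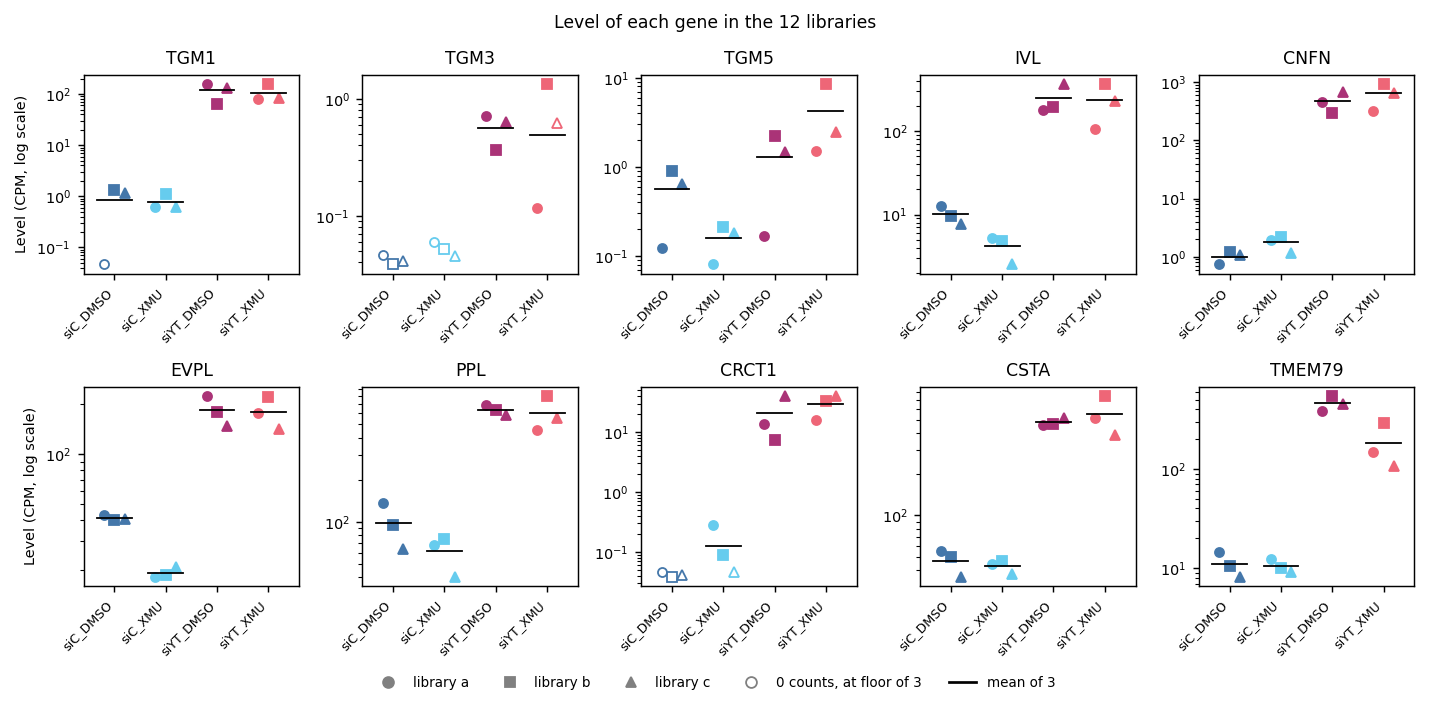
Level of each of the 10 genes in the 12 libraries, in CPM on a log axis, with 1 panel per gene, 1 point per library and a bar for the mean of 3. Open points are libraries with 0 counts, drawn at the level of 3 counts. The siYT_DMSO points lie above all siC_DMSO points in every panel but TGM5.

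Among the crosslinking enzymes, TGM1, the membrane-bound transglutaminase of keratinocytes, went from near 0 to a high level. It was at 0, 1.35 and 1.17 CPM in siC_DMSO libraries a, b and c, which are 0, 106 and 85 counts, and at 161, 63.5 and 133 CPM in siYT_DMSO. The lowest knockdown library was thus far above the highest control library. The log2 fold change was 7.13 (SE 0.97, adjusted p = 0.000174 in edgeR). TGM3, the soluble transglutaminase of hair follicle and epidermis, stayed scarce. It had 0 counts in all 3 siC_DMSO libraries and 0.709, 0.367 and 0.629 CPM, which are 17, 19 and 38 counts, in siYT_DMSO. Its mean was at least 13.6-fold higher, measured against a floor of 3 counts per control library (adjusted p = 0.0145 in edgeR). TGM5, an epidermal transglutaminase whose loss causes acral peeling skin, was the exception in DMSO. It was at 0.123, 0.905 and 0.647 CPM in siC_DMSO against 0.167, 2.20 and 1.46 in siYT_DMSO. The groups overlapped because siYT_DMSO a lay below 2 of the 3 control libraries. The log2 difference was 1.20 (SE 0.95, 95% interval -0.86 to 3.26, adjusted p = 0.379 in edgeR), an interval that holds both no change and a rise of several fold. Library a had the lowest TGM5 level in each of the 4 groups.

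The scaffold genes started from a clear level. EVPL, which encodes a plakin that links the envelope to intermediate filaments, was at 43.4, 40.3 and 40.6 CPM in siC_DMSO against 225, 180 and 149 in siYT_DMSO. Its control libraries had a coefficient of variation of 4.16%, the narrowest of the 10 genes in that group. The log2 fold change was 2.15 (SE 0.20, adjusted p = 1.22e-05 in edgeR), the smallest among the called members. PPL, its plakin partner, was at 136, 94.4 and 64.0 CPM in siC_DMSO against 687, 631 and 585 in siYT_DMSO. The rise in PPL was 2.69 on the log2 scale (SE 0.32, adjusted p = 7.43e-05 in edgeR). IVL, the glutamine-rich substrate that transglutaminases cross-link early, was at 12.7, 9.64 and 7.77 CPM in siC_DMSO against 178, 195 and 371 in siYT_DMSO. Library c of siYT_DMSO lay well above the other two, and all 3 lay above every control library. The log2 fold change of IVL was 4.63 (SE 0.50, adjusted p = 3.58e-05 in edgeR), larger than those of both plakins.

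CNFN and CRCT1, which differed most between the groups, had few or no control counts. CNFN, which encodes the envelope protein cornifelin, was at 0.735, 1.19 and 1.07 CPM in siC_DMSO against 467, 293 and 682 in siYT_DMSO. Every knockdown library was far above every control library. The log2 fold change was 8.90 (SE 0.56, adjusted p = 1.58e-06 in edgeR). CRCT1, a cysteine-rich protein gene of the epidermal differentiation complex, had 0 counts in siC_DMSO and 13.6, 7.48 and 40.4 CPM in siYT_DMSO. Its mean was at least 490.0-fold higher against the floor of 3 counts per control library (adjusted p = 0.000178 in edgeR). The knockdown libraries of CRCT1 had the widest spread of the 10 genes in siYT_DMSO, a coefficient of variation of 85.5%, with library c highest. Library c was also the highest of its group for IVL, CNFN and CSTA.

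CSTA and TMEM79 are not cross-linking enzymes or plakins. CSTA, cystatin A, a cysteine protease inhibitor that is built into the envelope, was at 54.5, 49.5 and 35.5 CPM in siC_DMSO against 462, 471 and 523 in siYT_DMSO. Its knockdown libraries were close together, with a coefficient of variation of 6.73%. The log2 fold change was 3.38 (SE 0.26, adjusted p = 4.05e-06 in edgeR). TMEM79, or mattrin, a membrane protein of the lamellar granule secretory system, was at 14.4, 10.6 and 8.20 CPM in siC_DMSO against 387, 548 and 457 in siYT_DMSO. No library of either group came near the other. The log2 fold change of TMEM79 was 5.39 (SE 0.39, adjusted p = 3.00e-06 in edgeR).

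Compared per length, in the deposited FPKM, the order of the genes changed with the knockdown. In siC_DMSO, CSTA led at 69.6 ± 15 FPKM (SD, n = 3), followed by PPL at 17.0 ± 6.37. EVPL at 7.05 ± 0.338, TMEM79 at 5.33 ± 1.53 and IVL at 5.19 ± 1.32 came next, and neighbours among these 3 overlapped between libraries. CNFN followed at 1.63 ± 0.370, then TGM1 at 0.338 ± 0.295 and TGM5 at 0.187 ± 0.136, which overlapped, and TGM3 and CRCT1 were listed at the table's value for no counts. In siYT_DMSO, CNFN at 691 ± 284 FPKM and CSTA at 638 ± 67.7 stood first and overlapped. TMEM79 at 198 ± 46.1, IVL at 113 ± 51.0 and PPL at 96.3 ± 5.38 formed the next group, in which neighbours overlapped. TGM1 at 41.7 ± 15.7, EVPL at 27.3 ± 4.38 and CRCT1 at 24.3 ± 21.3 came after them, again with neighbours overlapping. TGM5 at 0.394 ± 0.329 and TGM3 at 0.205 ± 0.0552 stayed under 1 FPKM in every siYT_DMSO library. Among the 3 transglutaminases, TGM1 thus had the highest level per length after the knockdown, with no overlap. The 10 genes summed to 106 ± 23.5 FPKM in siC_DMSO and 1829 ± 387 in siYT_DMSO. CNFN made up 1.62% ± 0.615 of that sum in siC_DMSO and 36.9% ± 8.22 in siYT_DMSO, while CSTA made up 65.5% ± 1.60 and 35.4% ± 5.09.

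**Figure D2:**
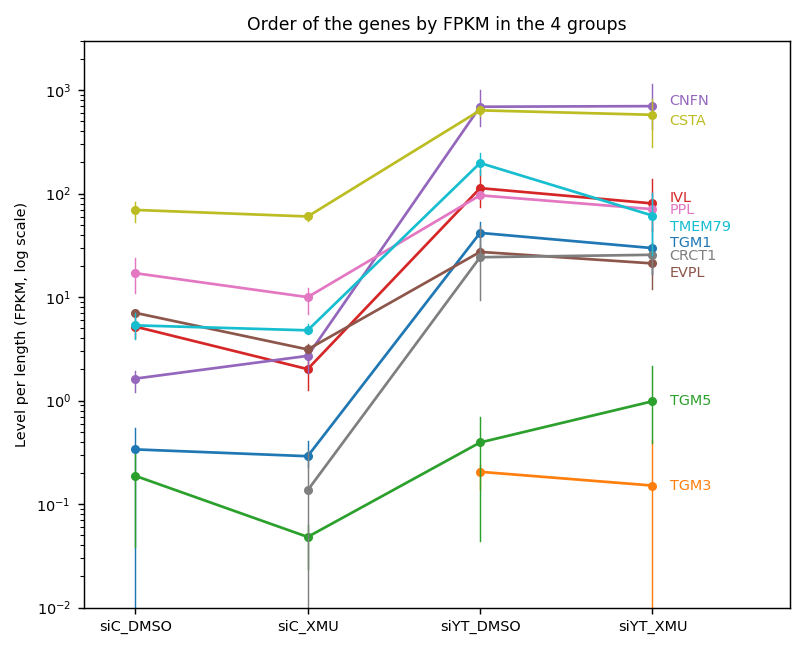
Mean FPKM of the 10 genes in the 4 groups, on a log axis, with vertical lines from the lowest to the highest of 3 libraries. Groups in which a gene had 0 counts in all 3 libraries have no point, and lines that reach the bottom belong to libraries with 0 counts. CNFN moved from 1.63 FPKM in siC_DMSO to 691 in siYT_DMSO, beside CSTA.

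XMU-MP1 in cells with control siRNA changed 1 of the 10 genes, EVPL, which fell. Over all genes, 9.26% were called in either direction and 5.26% lower in this comparison. EVPL was at 43.4, 40.3 and 40.6 CPM with DMSO and at 18.3, 18.8 and 20.9 with XMU-MP1. The groups did not overlap, and EVPL fell by 1.10 on the log2 scale (SE 0.19, adjusted p = 0.00516 in edgeR). IVL was also lower in all 3 XMU-MP1 libraries, at 5.21, 4.76 and 2.52 CPM against 12.7, 9.64 and 7.77, but did not pass the test (log2 difference -1.27, SE 0.44, adjusted p = 0.10 in edgeR). It passed in DESeq2, with an adjusted p of 0.0233. PPL was at 67.8, 75.6 and 40.4 CPM with XMU-MP1 and overlapped the DMSO libraries (log2 difference -0.68, adjusted p = 0.202 in edgeR). CSTA and TMEM79 gave differences of -0.13 (95% interval -0.64 to 0.38) and -0.08 (-0.79 to 0.64). CNFN was at 1.92, 2.21 and 1.14 CPM with XMU-MP1, a difference of 0.81 (-0.13 to 1.75). TGM1 stayed at 0.621, 1.08 and 0.607 CPM, and TGM5 was at 0.0802, 0.209 and 0.182 (log2 difference -1.81, adjusted p = 0.306 in edgeR). TGM3 had no count in either group. CRCT1, with 0 counts in siC_DMSO, had 14, 5 and 0 counts in siC_XMU. It was not called by edgeR (adjusted p = 0.111), and DESeq2 called it higher (adjusted p = 0.00944). CRCT1 was also the 1 member that edgeR put higher at an unadjusted p under 0.05, and voom called 0 members higher. Over the 18143 genes tested, 4222 had an unadjusted p under 0.05 in either direction, and DESeq2 called 1305 higher and voom 1407.

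XMU-MP1 after the knockdown also changed 1 gene, TMEM79, and not EVPL. Over all genes, 4.19% were called higher and 7.92% lower. TMEM79 was at 387, 548 and 457 CPM in siYT_DMSO and at 148, 289 and 107 in siYT_XMU. The groups did not overlap, and TMEM79 fell by 1.35 on the log2 scale (SE 0.33, adjusted p = 0.0201 in edgeR). The fall was 1.09 without siYT_XMU c (adjusted p = 0.0410 in edgeR). The call was lost without siYT_DMSO b (adjusted p = 0.0718), without siYT_DMSO c (adjusted p = 0.0571), without siYT_XMU a (adjusted p = 0.0693) and in a fit of only these 2 groups (adjusted p = 0.0652). EVPL was at 225, 180 and 149 CPM with DMSO and at 176, 222 and 142 with XMU-MP1, a log2 difference of -0.03 (SE 0.19, 95% interval -0.44 to 0.38). The intervals of PPL (-0.73 to 0.59), CSTA (-0.32 to 0.70), IVL (-1.01 to 0.85), CNFN (-0.44 to 1.28) and TGM1 (-1.75 to 1.44) also spanned 0. CRCT1 was at 15.7, 33.8 and 40.4 CPM with XMU-MP1 and overlapped the DMSO libraries. TGM5 was at 1.50, 8.62 and 2.49 CPM with XMU-MP1, with library b standing out (log2 difference 1.72, adjusted p = 0.274 in edgeR). TGM3 was at 0.117, 1.35 and 0 CPM, and the 0 of the shallow library siYT_XMU c allows up to 0.622 CPM against 0.709, 0.367 and 0.629 CPM in siYT_DMSO. Without siYT_XMU c the log2 differences were 0.11 for EVPL, -0.01 for PPL, 0.39 for CSTA, -0.07 for IVL, 0.40 for CNFN, -0.01 for TGM1, 0.27 for CRCT1, 0.38 for TGM3 and 1.97 for TGM5, and none of these was called. No member was higher at an unadjusted p under 0.05 (0 of 10), and DESeq2 and voom called 0 higher. Over the 18143 genes tested, 4874 had an unadjusted p under 0.05 in either direction, and DESeq2 called 1690 higher and voom 1010.

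**Figure D3:**
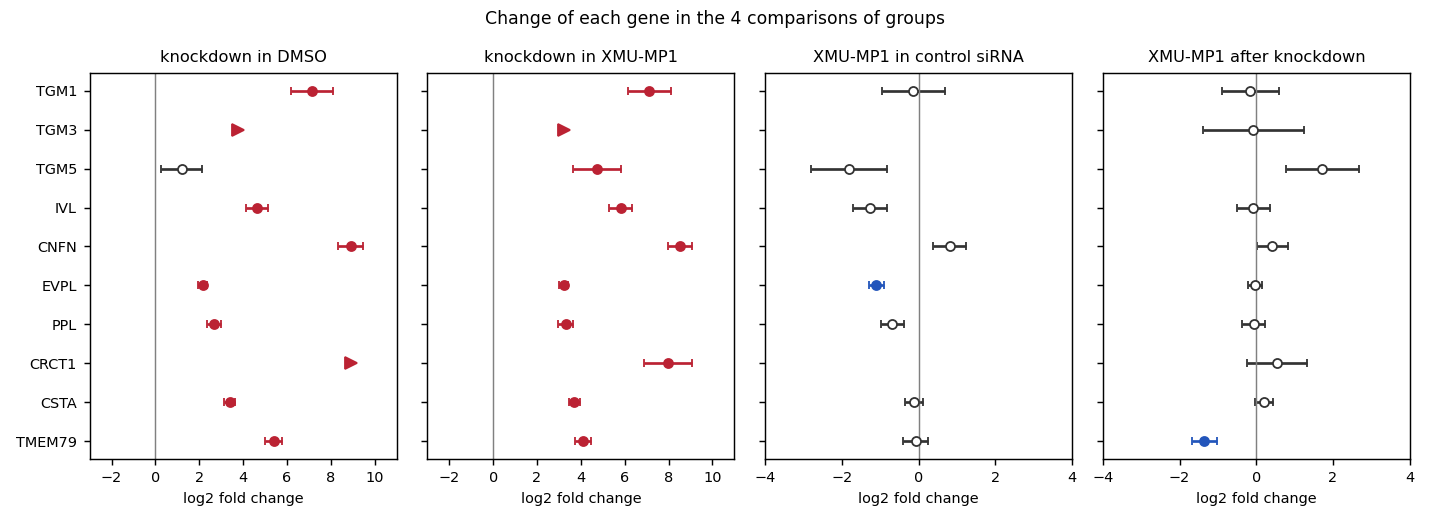
Log2 fold change of each gene in the 4 comparisons of groups, with bars for the SE. Filled red points were called higher, filled blue points lower and open points were not called, at an edgeR adjusted p under 0.05. Triangles are lower bounds for genes with 0 counts in the control group, and TGM3 and CRCT1 have no point for XMU-MP1 in control siRNA. All called changes with the knockdown are rises, and EVPL and TMEM79 are the called genes with XMU-MP1.

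The knockdown in the presence of XMU-MP1 raised all 10 genes, in a comparison where 17.7% of all genes were called higher and 18.6% lower. No member fell at an unadjusted p under 0.05 (0 of 10), and DESeq2 and voom called 0 lower. Over the 18143 genes tested, 8347 had an unadjusted p under 0.05 in either direction, and DESeq2 called 3596 lower and voom 3751. This comparison shares no library with the knockdown in DMSO, but both come from 1 fit with a shared estimate of the spread. Log2 fold changes were 7.12 for TGM1, 8.52 for CNFN, 7.97 for CRCT1, 5.82 for IVL, 4.11 for TMEM79, 3.70 for CSTA, 3.30 for PPL and 3.22 for EVPL, with adjusted p from 1.67e-06 to 0.000420 in edgeR. CRCT1 rests there on 14, 5 and 0 counts in siC_XMU. TGM5, not called in DMSO, was at 0.0802, 0.209 and 0.182 CPM in siC_XMU against 1.50, 8.62 and 2.49 in siYT_XMU. The groups did not overlap, and the log2 fold change was 4.73 (SE 1.10, adjusted p = 0.00556 in edgeR). Without siYT_XMU c it was 4.98 (adjusted p = 0.00652 in edgeR). Without siYT_XMU c the log2 fold changes were 7.26 for TGM1, 8.50 for CNFN, 7.70 for CRCT1, 5.83 for IVL, 4.37 for TMEM79, 3.90 for CSTA and 3.36 for both PPL and EVPL, and all 10 genes were called. TGM3 had 0 counts in siC_XMU and was at least 9.31-fold higher in the mean of siYT_XMU (adjusted p = 0.0162 in edgeR). That mean rests on library b, with 70 counts against 4 and 0, and without b the call was lost (adjusted p = 0.0653). It was also lost on the FPKM scale, with an adjusted p of 0.139 or 0.188 in limma by pseudocount, so that 9 of the 10 genes were called there. The median log2 fold change of the 10 genes was 5.27, or 4.42 with TGM3 at its lower bound, beside 0.04 over all genes.

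Whether XMU-MP1 acted differently in the 2 siRNA arms was tested as the interaction, which is the log2 XMU-MP1 difference after the knockdown minus that with control siRNA. None of the 10 genes was called by edgeR, beside 0.860% of all genes called higher and 1.73% lower. At an unadjusted p under 0.05 there were 2 members higher and 2 lower, and DESeq2 and voom each called 1 higher and 0 lower. Over the 18143 genes tested, 3324 had an unadjusted p under 0.05 in either direction. DESeq2 called 854 of all genes higher and 949 lower, and voom 422 and 714. The member called by DESeq2 and voom was EVPL, with an interaction of 1.07 (SE 0.27, adjusted p = 0.0582 in edgeR, 0.00214 in DESeq2). Without siYT_XMU c it was 1.21 (adjusted p = 0.0216 in edgeR), and without siYT_DMSO a it was 1.23 (adjusted p = 0.0410 in edgeR). The difference of EVPL between the arms therefore did not pass in the reported fit and passed in these alternatives. TMEM79 had an interaction of -1.28 (SE 0.46, adjusted p = 0.162 in edgeR), -1.79 without siYT_XMU b (adjusted p = 0.0293) and -1.01 without siYT_XMU c (adjusted p = 0.172). TGM5 had 3.53 (SE 1.38, adjusted p = 0.196 in edgeR) and 3.78 without siYT_XMU c (adjusted p = 0.150), so its call in 1 knockdown comparison and not in the other is not a shown difference. The remaining genes with counts in all groups lay at -0.01 for TGM1, 1.19 for IVL, 0.61 for PPL, 0.32 for CSTA and -0.39 for CNFN. Without siYT_XMU c these were 0.14, 1.21, 0.67, 0.52 and -0.40, none of them called.

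The other genes of the pathway were taken from lists by function. Of 41 structural proteins of the envelope in the table, 24 were tested after the knockdown in DMSO, 17 rose and 0 fell, with a median log2 fold change of 6.92 (5.36 with 4 genes at their lower bounds). Over all genes tested, 16.1% were called higher and 16.0% lower. Of the 24, 11 passed the filter on low values only with the help of knockdown libraries, because fewer than 3 of the 6 control siRNA libraries reached its level, and 8 of these 11 were among those that rose. The filter thus fixes part of this count and median. Of the other 13 tested, 9 rose. At an unadjusted p under 0.05 edgeR also put 0 lower, and DESeq2 and voom called 0 lower. SPRR1B, a small proline-rich cross-bridging protein, went from 6.41 ± 1.40 to 1970 ± 508 CPM, and SPRR1A from 1.91 ± 0.242 to 1259 ± 488. CDSN, corneodesmosin, an adhesion protein of cornified cells, went from 1.19 ± 0.144 to 80.8 ± 24.8 CPM. Genes of the SPRR2 group are near-identical copies, and reads could be split among them, so their single values are uncertain. The major late envelope protein loricrin was not among the genes that rose: LORICRIN had 0 counts in all siC_DMSO and siYT_DMSO libraries. FLG, which encodes filaggrin, was at 0.0517 FPKM in siC_DMSO and 0.0434 in siYT_DMSO and was not called (log2 difference -0.05, adjusted p = 0.988 in edgeR). At that low level its 95% interval, -2.94 to 2.83, holds a rise or a fall of several fold.

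Lipids of the barrier are delivered by lamellar granules and bound to the envelope's outer face. The 20 genes of that list were tested and rose after the knockdown in DMSO, beside 16.1% of all genes called higher. The median log2 fold change of the 20 genes was 5.18 (4.57 with 4 genes at their lower bounds). Of these, 7 passed the filter on low values only with knockdown libraries, among them CERS3, CYP4F22, PNPLA1 and SPINK5 with 0 counts in siC_DMSO, so their being tested depended on the higher group. The other 13 would have passed on control siRNA libraries alone, and they also rose. ABCA12, the lipid transporter of the granules, went from 16.8 ± 5.54 to 492 ± 29.2 CPM. SMPD1, acid sphingomyelinase, went from 13.2 ± 3.16 to 149 ± 28.6, and ELOVL4, which makes very long acyl chains, from 9.10 ± 1.36 to 50.7 ± 5.63. The smallest change in that list was 0.64 on the log2 scale.

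Lists close to EVPL, PPL and CSTA moved less after the knockdown in DMSO, where 16.1% of all genes were called higher and 16.0% lower. Of 9 tested plakins and desmosomal anchors, 6 rose and 1 fell (median 1.53), and 2 of the 6, PKP1 and DSG1, passed the filter only with knockdown libraries. DSP, desmoplakin, went from 328 ± 14.6 to 1070 ± 243 CPM, JUP, plakoglobin, from 319 ± 67.5 to 1289 ± 140 and PKP3, plakophilin, from 197 ± 9.37 to 570 ± 27.7. DST, a plakin of hemidesmosomes, was the gene of the plakin list that fell, by 1.52 on the log2 scale (adjusted p = 0.00349 in edgeR), and is named after its value was seen. PLEC, another plakin of that list, was not called (log2 difference -0.18, adjusted p = 0.641 in edgeR). Of 12 cystatins and cathepsins, 8 rose and 1, CTSZ, fell (median 1.21). CSTB, cystatin B, went from 184 ± 27.2 to 1242 ± 468 CPM, CTSV, the cathepsin L-like protease of epithelia, from 9.49 ± 1.93 to 173 ± 101 and CTSA from 141 ± 17.4 to 474 ± 79.6.

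Of the relatives by family, 1 transglutaminase and 1 PLAC8-domain gene fell after the knockdown in DMSO, beside 16.0% of all genes called lower. Of 6 other transglutaminase family genes, 2 were tested, 1 fell and the other, TGM4, was not called (adjusted p = 0.0952 in edgeR). TGM2, the tissue transglutaminase, was at 18.8, 16.4 and 46.0 CPM in siC_DMSO against 2.92, 1.33 and 11.6 in siYT_DMSO. The groups did not overlap, and TGM2 fell by 2.34 on the log2 scale (SE 0.81, adjusted p = 0.0439 in edgeR), a call that was lost in each of 8 fits that left out 1 library (siC_DMSO a, b or c, siC_XMU a or c, siYT_DMSO a or b, or siYT_XMU a). With XMU-MP1 present TGM2 was not called lower after the knockdown (adjusted p = 0.0696 in edgeR), and without siYT_XMU c it was (fell by 3.03, adjusted p = 0.0207). Of the 2 PLAC8-domain relatives of CNFN, PLAC8 went from 6.23 ± 1.56 to 0.155 ± 0.168 CPM and fell by 5.45 on the log2 scale (adjusted p = 0.00116 in edgeR), and the other, PLAC8L1, was not called (adjusted p = 0.562). With XMU-MP1 present, the knockdown raised 18 of 24 tested structural envelope proteins, 17 of 20 lamellar granule and lipid genes, 6 of 9 plakins and desmosomal anchors and 8 of 12 cystatins and cathepsins. Without siYT_XMU c these counts were 17, 16, 6 and 9. Over all genes, the knockdown with XMU-MP1 present gave 17.7% called higher and 18.6% lower. In that comparison 1 gene fell in each of 3 lists. VIPAS39, a trafficking factor of the lipid list, fell by 0.64 on the log2 scale (adjusted p = 0.0398 in edgeR), a call lost without siYT_XMU c (adjusted p = 0.0790). CTSZ fell by 1.02 (adjusted p = 0.00831) and PLAC8 by 3.00 (adjusted p = 0.0231), and both were also called without siYT_XMU c. DST was not called there (log2 difference -0.80, adjusted p = 0.0714), and without that library it fell by 1.16 (adjusted p = 0.0139).

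With XMU-MP1 in control siRNA, 1 of 24 structural envelope proteins and 1 of 20 lamellar granule and lipid genes were called. The other lists by function had no called gene. Without siYT_XMU c, which enters the shared estimate of the spread, 1 plakin or desmosomal anchor was called lower there and 1 cystatin or cathepsin higher. With XMU-MP1 after the knockdown the called gene was 1 of the 20 lamellar granule and lipid genes, and without siYT_XMU c 1 of 12 cystatins and cathepsins was also called, higher. Over all genes, 9.26% were called in either direction in control siRNA, and 4.19% higher and 7.92% lower after the knockdown. In control siRNA ELOVL4 rose, from 8.45, 10.7 and 8.18 CPM with DMSO to 19.0, 22.7 and 22.3 (log2 fold change 1.23, SE 0.18, adjusted p = 0.00206 in edgeR). After the knockdown it was at 47.9, 47.1 and 57.2 CPM with DMSO and at 51.2, 61.9 and 51.6 with XMU-MP1, and its interaction was called (-1.11, SE 0.25, adjusted p = 0.0386 in edgeR), also without siYT_XMU c (-1.07, adjusted p = 0.0378). VIPAS39 fell with XMU-MP1 after the knockdown, by 1.34 on the log2 scale (adjusted p = 0.00297 in edgeR), in the same comparison as TMEM79, and by 1.16 without siYT_XMU c (adjusted p = 0.00453). Both HRNR and VIPAS39 are named after their values were seen. HRNR, which encodes hornerin, was the structural protein called lower with XMU-MP1 in control siRNA, from a mean of 0.221 CPM to 0 counts. These lists were chosen with earlier results of the data known, so their counts describe them and are no independent support.

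**Figure D4:**
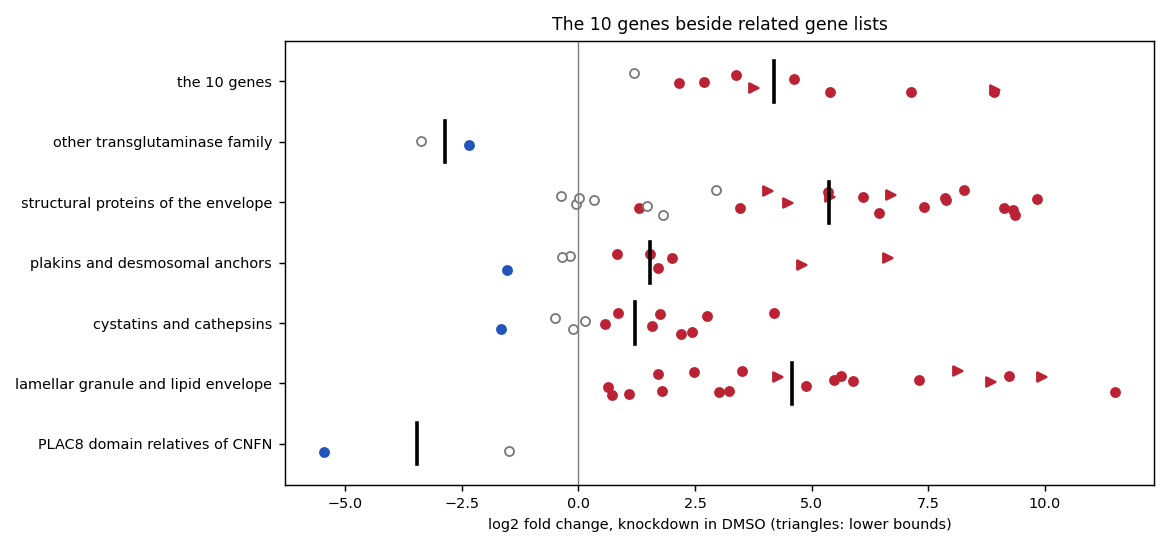
Log2 fold change after the knockdown in DMSO for the 10 genes and the tested genes of 6 lists, 1 point per gene, with a bar at the median. Red was called higher, blue lower and open points were not called, and triangles are lower bounds for genes with 0 control counts. The 20 lamellar granule and lipid genes all lie above 0, and the called transglutaminase and PLAC8-domain relatives lie below 0.

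IVL and CRCT1 sit in a stretch of 83 table entries from S100A10 to CHTOP, with 23 entries between them and 394 kb between their starts. Of the other 81 entries, 46 were tested after the knockdown in DMSO, 28 rose and 1 fell, with a median log2 fold change of 3.43 (3.18 with 5 genes at their lower bounds). Over all genes tested, 16.1% were called higher and 16.0% lower. Of the 46, 17 passed the filter on low values only with knockdown libraries, and 12 of these 17 were called higher. Of the other 29, 16 rose. The entries after CRCT1, LCE3E and LCE3D, rose with it, from 0.0387 to 38.3 FPKM and from 0.234 to 139 FPKM as group means. Only 7 of the 23 entries between CRCT1 and IVL were tested, 4 of them rose, and many entries of the stretch had too few counts in every group. Of 18 LCE entries, 6 were tested and 4 rose. Of 11 SPRR entries, all were tested and 9 rose. Of 17 S100 entries, 16 were tested and 11 rose. S100A7, psoriasin, went from 16.7 ± 4.26 to 5043 ± 1090 CPM, and its near-identical neighbour S100A7A could share reads with it. The entry that fell was CHTOP, at the end of the stretch, by 0.51 on the log2 scale (adjusted p = 0.0285 in edgeR). That call was lost in 8 of the 21 alternatives, which were a filter of 1 count, FPKM with a pseudocount of 1, and each siC_DMSO or siYT_DMSO library left out. Among the 5 entries on each side of IVL 4 were tested and 3 rose, and among those around CRCT1 3 were tested and 2 rose. XMU-MP1 in control siRNA raised 1 of the 46, CHTOP (0.73 on the log2 scale, adjusted p = 0.0153 in edgeR). HRNR and PGLYRP4 were the 2 called lower there, from means of 0.221 and 0.305 CPM to 0 counts. Over all genes, 9.26% were called in either direction in that comparison and 5.26% lower. XMU-MP1 after the knockdown lowered 1 of the 46, S100A7A (by 1.73, adjusted p = 0.0218 in edgeR), beside 7.92% of all genes called lower. Without siYT_XMU c 1 entry rose and 2 fell. These genes are named after their values were seen.

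**Figure D5:**
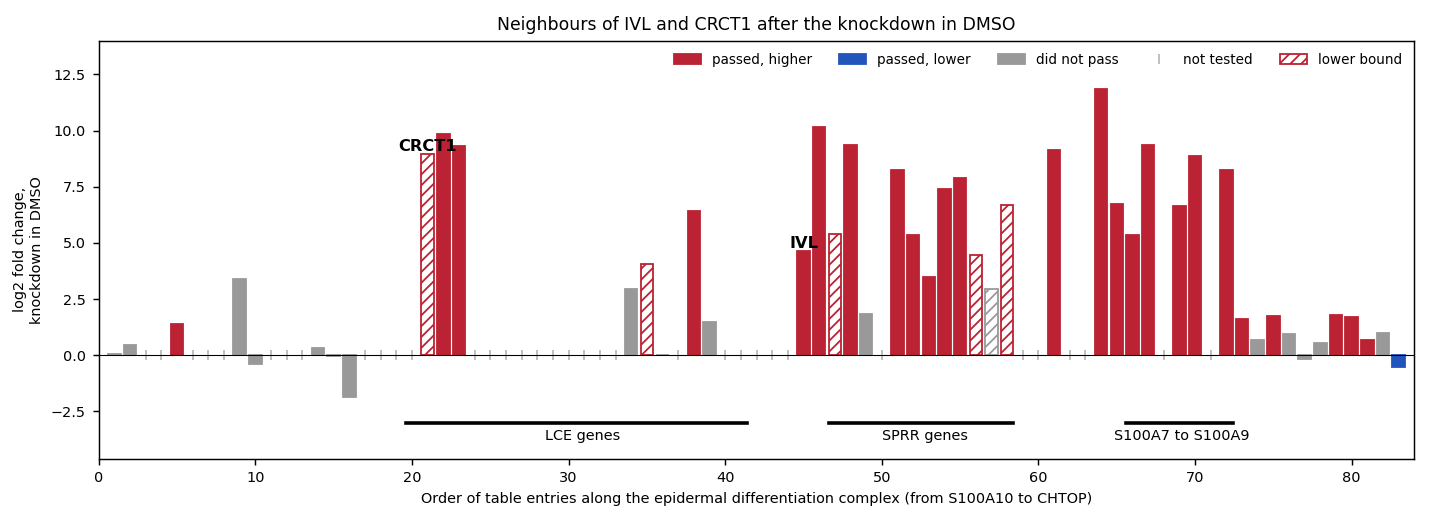
Log2 fold change after the knockdown in DMSO for the 83 entries of the epidermal differentiation complex, in their order along chromosome 1. Red bars were called higher, the blue bar lower, grey bars were not called, hatched bars are lower bounds and ticks mark entries not tested. Called rises lie at CRCT1 and the next 2 entries, at LCE1F and LCE1C, at many entries from IVL through the SPRR genes to S100A7, at S100A11 before CRCT1 and at several entries beyond S100A7, with untested entries between.

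The genes whose levels moved most like TGM1 and IVL were sought among 11291 genes with a mean of at least 1 FPKM, by the root mean square difference of log2(CPM + 1), each centred on its own mean over the 12 libraries. Closest to TGM1 were PLA2G4E at 0.418 log2 units, BNIPL at 0.450, VSIG10L at 0.494, LYPD3 at 0.495 and TMPRSS4 at 0.500. PLA2G4E went from a mean of 0.115 CPM in siC_DMSO to 110 in siYT_DMSO, beside 0.841 and 119 for TGM1. The added 1 flattens differences under 1 CPM, so these unlike control levels count as near. Closest to IVL were TMPRSS13 at 0.411, ABCA12 at 0.424, ACP7 at 0.439, GSDMA at 0.501 and LYPD5 at 0.501. Without siYT_XMU c, 3 of the 5 were the same for TGM1 and 3 of the 5 for IVL. This is a description over 12 libraries that share their groups.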

How the data were processed

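RNA of 12 MCF10A libraries was measured by stranded poly(A) sequencing, per the labels' protocols. The submitters' processing notes name cutadapt, FastQC, HISAT2, StringTie, edgeR and GRCh38.p13, and versions and settings are not given in the sources used here. The authors deposited whole-number counts per gene, per the file headers, and FPKM, per the file headers, which scales fragments to length and depth. Genes without counts carry an FPKM of 1e-04.

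For the 46931 entries, counts went through edgeR 4.0.16 (R 4.3.3): filterByExpr kept 18143, TMM scaled the libraries, and 4 group means were fitted (8 residual degrees of freedom). Genes with a Benjamini-Hochberg adjusted p under 0.05 were called, two-sided. Levels are CPM, and the SE is the log2 fold change over the root of F. A group at 0 was set to a floor of 3 counts per library (0.0382 to 0.622 CPM), which covers counting error only. Genes were compared with each other in FPKM.

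In simulated data of 18143 genes made from these libraries, a small set with means above 1 CPM was changed. The knockdown comparison in DMSO recovered 13% of those changed 2-fold and 71% of those changed 4-fold. Far more genes were called in the data than were changed there, and genes as scarce as TGM3 could not be among those changed. These shares therefore do not carry over to the reported test. Alternatives were DESeq2 1.42.0, voom and FPKM in limma 3.58.1, other filters and scalings, a replicate block and each library left out. The letters a, b and c were not taken as pairs: 2 of 18 same-letter correlations of deviations exceeded 0.1.

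The members and lists were chosen with earlier results of these data known. Named genes are the members, the siRNA targets, up to 3 called genes per list with the smallest adjusted p and at least 1 FPKM, and the 5 profiles nearest TGM1 and IVL.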

Additional observations from a re-analysis of the deposited data

How the results depend on the processing

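Under the 21 alternatives, the 9 members called in the knockdown in DMSO and the 10 called in XMU-MP1 were called in each setting run, except TGM3. TGM3 was tested in 20 of the 21 settings in DMSO and in 19 in XMU-MP1, and could not be called in the rest. TGM3 was lost in DMSO with FPKM and a pseudocount of 1 (adjusted p = 0.0751). In XMU-MP1 it was lost with the replicate block (adjusted p = 0.0541), with FPKM and a pseudocount of 0.1 (0.139) or 1 (0.188) and without siYT_XMU b. The fall of EVPL with XMU-MP1 in control siRNA was called in all 21, with adjusted p up to 0.0449. With the replicate block, members called were 9 higher in the knockdown in DMSO, 9 in XMU-MP1, 1 lower with XMU-MP1 in each arm and 0 in the interaction. Samples share only a letter: deviations correlated best with the same letter for 11 of 12 libraries, a hint from the data and not the design.

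Members called higher with XMU-MP1 in control siRNA were 1 in DESeq2 (0 in the reported fit), and members called lower were 2 in DESeq2 and 2 in the fit of only the groups compared (reported 1). With XMU-MP1 after the knockdown, members called lower were 0 in the fit of only the groups compared and 0 to 1 with each library left out (reported 1). In the interaction, members called higher were 1 with a CPM of at least 1 in 3 libraries, 1 with DESeq2 size factors, 1 in DESeq2, 1 in voom and 0 to 1 with a library left out, and members called lower were 0 to 1 with a library left out (reported 0 for both). The cause was not tested. Of 994 recomputed member values, 38 changed sign, none of them for a called result and none with an adjusted p under 0.05. These were, as log2 values, TGM1 with XMU-MP1 in control siRNA at 1.58 in voom and 0.20 with FPKM and a pseudocount of 0.1. After the knockdown XMU-MP1 gave CNFN -0.042 and CSTA -0.27 with either FPKM pseudocount, and EVPL 0.017 with the CPM filter, 0.024 with DESeq2 size factors, 0.026 in DESeq2 and 0.041 in voom. In the interaction TGM1 was at 0.026, 0.044 and 0.028 under the first 3 of these, CRCT1 at 0.18 with FPKM and a pseudocount of 1, and CSTA at -0.081 and -0.082 with FPKM and a pseudocount of 0.1 and 1. With each library left out, XMU-MP1 in control siRNA ranged from -0.71 to 0.37 for TGM1 and from -0.25 to 0.16 for TMEM79. XMU-MP1 after the knockdown ranged from -0.55 to 0.12 for TGM1, -2.77 to 0.40 for TGM3, -0.58 to 0.33 for IVL, -0.22 to 0.13 for EVPL, -0.33 to 0.093 for PPL and -0.10 to 0.39 for CSTA, and the interaction of TGM1 from -0.53 to 0.56.

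The FPKM scale moved the median over all genes with a pseudocount of 0.1, to -0.14 in the knockdown in DMSO, -0.43 in XMU-MP1 and -0.36 for XMU-MP1 after the knockdown. In that last comparison the higher share of calls was 34.6% as reported, 19.4% there and 46.0% in DESeq2. Of list counts in the knockdown in DMSO, other transglutaminases called lower were 2 in DESeq2 and with both FPKM settings, and 0 without any 1 of 8 libraries. The neighbourhood entry called lower, CHTOP, was lost in 8 settings. TGM3 had at most 70 counts in a library, and the limit that a count of 0 allows was highest in siYT_XMU c, at 0.622 CPM.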
